A study of Mus musculus with 4 samples.

Results

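Y RNAs and vault RNA are short noncoding RNAs of the cytoplasm. The mouse genes followed here were Rny1, Rny3 and Vaultrc5, found by their symbols, and all 3 were present among 47069 gene IDs. They were measured in 2 libraries of RNA from tumour-derived exosomes and in 2 libraries of RNA from primary tumour. The tumours were Lewis lung carcinoma, an established mouse lung carcinoma line, grown under the skin of C57BL/6 mice and taken 3 weeks after inoculation. For exosomes, pieces of tumour were kept for 12 h in RPMI medium without serum, the medium was cleared and passed through a 0.2 µm filter, and vesicles for RNA were collected with the precipitation reagent ExoQuick-TC without ultracentrifugation. Tumour pieces hold host cells as well as carcinoma cells, so the material collected came from the whole piece. The counts do not say whether an RNA of the exosome libraries lay inside vesicles or outside them. The comparison asked which transcripts differ between exosomes and the tumour they came from.

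Y RNAs fold back on themselves so that their ends pair, and the Ro60 protein binds that stem while the La protein binds the run of uridines at the 3′ end. They are known for roles in RNA quality control and in the start of DNA replication, and Y RNAs and pieces of them are commonly found in extracellular vesicles and body fluids. Vault RNA is the RNA part of the vault, a large barrel-shaped particle built mainly of the major vault protein, although most vault RNA of a cell lies outside vaults. All 3 genes are transcribed by RNA polymerase III, which also makes 5S ribosomal RNA, transfer RNAs, U6 and the RNAs of RNase P, RNase MRP, 7SL and 7SK.

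Rny1 (112 bases, chr6:47788069-47788180, minus strand) and Rny3 (102 bases, chr6:47781624-47781725, plus strand) lie 6343 bases apart on chromosome 6 of GRCm38, on opposite strands. No other gene annotated in GENCODE M21 overlaps either of them. The Y RNA sequences from GENCODE M21 are shown because their counts part in the results below although the RNAs are alike. Capitals mark aligned bases that are identical in both.
Rny1: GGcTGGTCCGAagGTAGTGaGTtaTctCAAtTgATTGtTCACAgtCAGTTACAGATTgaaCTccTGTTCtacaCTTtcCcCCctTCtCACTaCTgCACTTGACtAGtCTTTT
Rny3: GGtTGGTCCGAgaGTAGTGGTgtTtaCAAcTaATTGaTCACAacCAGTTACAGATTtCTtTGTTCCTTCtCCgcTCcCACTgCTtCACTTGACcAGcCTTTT
In this alignment 80 of 112 columns were identical (71.4%). The shared runs of at least 8 bases were TGGTCCGA near the 5′ end, CAGTTACAGATT in the middle and CACTTGAC near the 3′ end. Vaultrc5 was identical in 48.3% of alignment columns with Rny1 and 43.5% with Rny3. Each of the 3 transcripts ends in a run of 4 T. In the minimum free energy fold predicted by RNAfold, base 1 paired with base 108 in Rny1, with base 98 in Rny3 and with base 139 in Vaultrc5, so that in each the 2 ends paired and that run of T lay outside the outermost pair.

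The exosome libraries held 305751 and 217201 gene counts and the tumour libraries 14543691 and 10849811, together 48.6 times as many. A single count was worth 3.27 and 4.60 CPM, counts scaled to the library total, in exosomes, against 0.0688 and 0.0922 CPM in tumour. Genes with symbols of small nucleolar RNAs took 0.818% and 0.727% of exosome counts, against 63.8% and 64.6% of tumour counts, and every share of a tumour library is lowered by that class. The labels call the libraries replicates without naming separate animals, so the p-values speak only to library-to-library spread, which may be technical. Reads were amplified without molecular identifiers, and the intervals given here cover counting error only. The counts do not say whether a read came from a whole RNA or a fragment of it. In bulk samples, fewer cells of a type and less RNA per cell cannot be told apart.

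Vault RNA took a larger share of counts in exosomes than in tumour. Its gene Vaultrc5 (143 bases, GRCm38 chr18:36801866-36802008, plus strand) overlaps no other annotated gene, and like the Y RNA genes it carries the misc_RNA class. Vaultrc5 had 336 and 276 counts in the exosome libraries, against 276 and 195 in the tumour libraries, which held far more counts. These were 0.110% (exact 95% interval 0.0985% to 0.122%) and 0.127% (0.113% to 0.143%) of exosome counts, against 0.00190% (0.00168% to 0.00214%) and 0.00180% (0.00155% to 0.00207%) of tumour counts. Both exosome libraries stood above both tumour libraries and no intervals overlapped. The mean share was 0.118% ± 0.0121 in exosomes and 0.00185% ± 0.0000710 in tumour (SD, n = 2 each), a 64.1-fold difference. With genes of small nucleolar RNA symbols left out of the totals it was 0.119% in exosomes and 0.00516% in tumour, a 23.1-fold difference, and scaling with TMM, which sets each difference relative to a typical tested gene, gave 9.20-fold. Per length, Vaultrc5 had 7685 and 8886 FPKM (fragments per kilobase of gene, scaled to the library total) in exosomes, against 133 and 126 FPKM in tumour. By FPKM it ranked 91 and 91 among all genes of the exosome libraries, against 231 and 219 in tumour.

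Y1 RNA was abundant in both kinds of library. Rny1 had 365 and 284 counts in exosomes, against 4148 and 2747 in tumour, which came to 0.119% (0.107% to 0.132%) and 0.131% (0.116% to 0.147%) of exosome counts, against 0.0285% (0.0277% to 0.0294%) and 0.0253% (0.0244% to 0.0263%) of tumour counts. The groups did not overlap, and the mean share was 4.65 times as high in exosomes (0.125% ± 0.00804) as in tumour (0.0269% ± 0.00226; SD, n = 2 each). With genes of small nucleolar RNA symbols left out of the totals it was 1.68 times as high, with 0.126% in exosomes and 0.0751% in tumour, and TMM scaling gave a ratio of 0.670, the opposite direction. Its rank by counts was 89 and 89 in exosomes, against 81 and 82 in tumour. Per length it had 10659 and 11674 FPKM in exosomes, against 2547 and 2261 FPKM in tumour, and in all 4 libraries it was the highest of the 3 members by counts and by FPKM.

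Y3 RNA was the only member with a lower share in exosomes. Rny3 had 18 and 13 counts in exosomes, against 1249 and 1216 in tumour. These were 0.00589% (0.00349% to 0.00930%) and 0.00599% (0.00319% to 0.0102%) of exosome counts, against 0.00859% (0.00812% to 0.00908%) and 0.0112% (0.0106% to 0.0119%) of tumour counts. The group values did not overlap, but the exosome intervals reached those of tumour replicate 1. With so few exosome counts the shares of these libraries could not be told apart. The mean share was 0.00594% ± 0.0000694 in exosomes and 0.00990% ± 0.00185 in tumour (SD, n = 2 each), a ratio of 0.600. With genes of small nucleolar RNA symbols left out of the totals the ratio was 0.216, and with TMM scaling it was 0.0870. Per length, Rny3 had 577 and 587 FPKM in exosomes, against 842 and 1099 FPKM in tumour. By FPKM the order in exosomes was Rny1, Vaultrc5, Rny3, and in tumour it was Rny1, Rny3, Vaultrc5, with no overlap between neighbours over the replicates of a group.

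**Figure D1:**
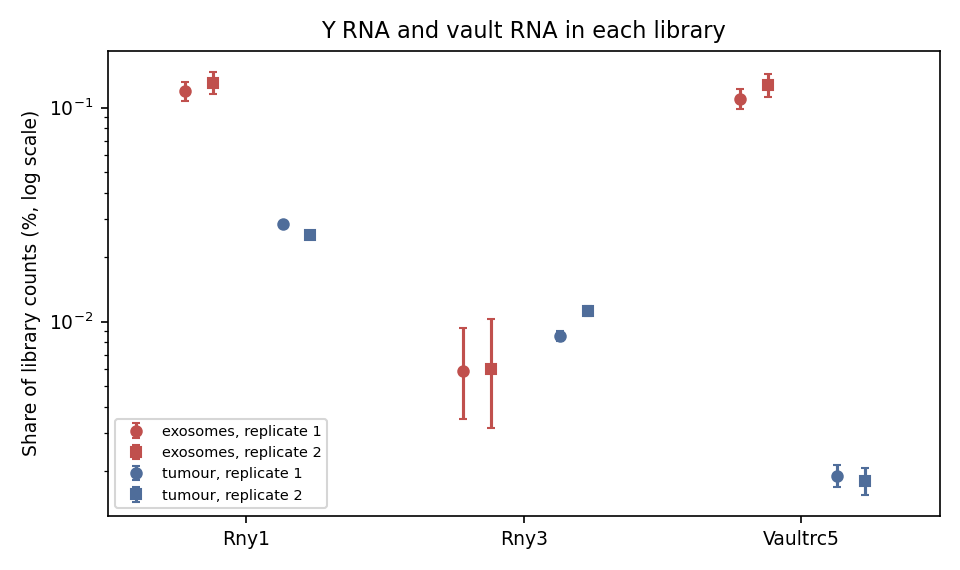
Share of all library counts (percent, log axis) of Rny1, Rny3 and Vaultrc5 in the 2 exosome and the 2 tumour libraries, each point 1 library with its exact 95% binomial interval. Vaultrc5 stands at 0.110% and 0.127% in exosomes and at 0.00190% and 0.00180% in tumour, and Rny3 is the one RNA whose exosome points lie under its tumour points.

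Ratios between members within a library do not depend on how libraries are scaled to each other, and here they separated the groups. Vaultrc5 over Rny1 was 0.921 (exact 95% interval 0.791 to 1.07) and 0.972 (0.820 to 1.15) in exosomes, against 0.0665 (0.0587 to 0.0752) and 0.0710 (0.0611 to 0.0821) in tumour. Vault RNA and Y1 RNA were thus counted about equally in exosomes, while Y1 was well ahead in tumour. On the log2 scale the ratio was 3.78 higher in exosomes, a 13.8-fold difference, beside replicate SDs of 0.0553 in exosomes and 0.0660 in tumour. Vaultrc5 over Rny3 was 18.7 (11.6 to 31.9) and 21.2 (12.2 to 40.4) in exosomes, against 0.221 (0.193 to 0.252) and 0.160 (0.137 to 0.187) in tumour, a difference of 6.72 on the log2 scale. The order of these RNAs was therefore opposite in exosomes and tumour.

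The Y RNAs also parted from each other. Rny1 over Rny3 was 20.3 (12.6 to 34.6) and 21.8 (12.6 to 41.5) in exosomes, against 3.32 (3.12 to 3.54) and 2.26 (2.11 to 2.42) in tumour. The log2 ratio averaged 4.40 ± 0.0760 in exosomes and 1.45 ± 0.393 in tumour (SD, n = 2 each), a 7.68-fold difference. The RNAs of these 2 genes are identical in 71.4% of alignment columns, gaps included. For each of the 3 ratios the exact two-sided permutation test gave p = 0.333, the smallest p that 2 libraries against 2 allow, so the ratios are described by their values and intervals. The exosome intervals for both ratios to Rny3 are wide because they rest on 18 and 13 counts.

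**Figure D2:**
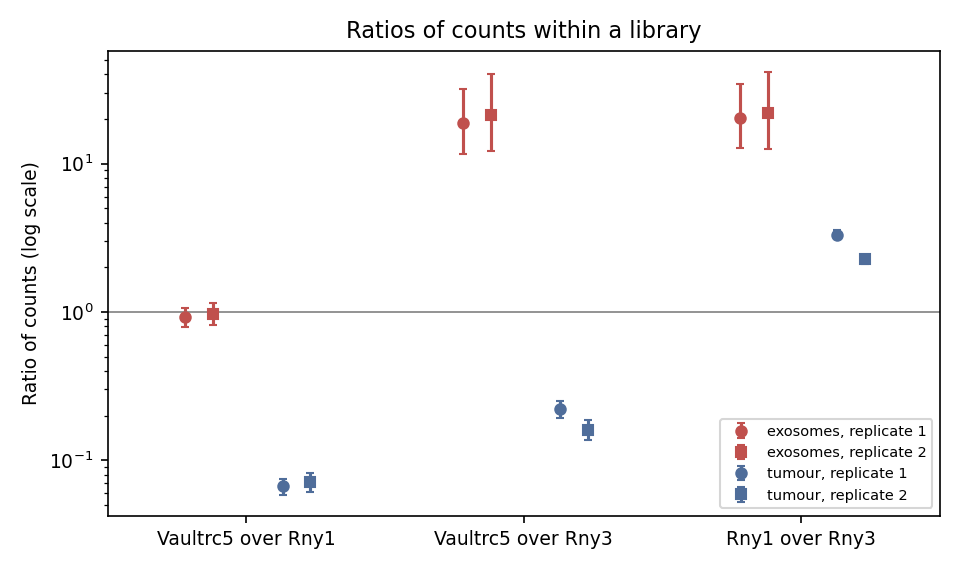
Ratio of counts between members within each library (log axis; the grey line marks a ratio of 1), each point 1 library with its exact 95% interval, exosomes left of tumour. Vaultrc5 over Rny1 is 0.921 and 0.972 in exosomes and 0.0665 and 0.0710 in tumour, and Rny1 over Rny3 is 20.3 and 21.8 in exosomes and 3.32 and 2.26 in tumour.

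In edgeR's quasi-likelihood test over the 1442 genes that passed its filter, with TMM scaling, Vaultrc5 was higher in exosomes by 3.20 on the log2 scale (SE 0.14, 95% interval 2.88 to 3.52, edgeR adjusted p = 5.22e-07). Rny3 was lower by a log2 difference of −3.52 (SE 0.27, 95% interval −4.15 to −2.90, edgeR adjusted p = 1.56e-05). Rny1 had −0.58 (SE 0.14, 95% interval −0.90 to −0.25, edgeR adjusted p = 0.0118). All 3 genes passed the filter and all 3 were called, where 38.0% of tested genes were called, 16.0% as higher and 22.1% as lower. The filter asked for 15 counts in total and 1.79 CPM in at least 2 libraries, and 1 exosome count is worth more than that. Genes with 1 count in each exosome library could thus pass. TMM, the shares of genes called and the placings below rest partly on such genes. With library totals, genes that reached that level only in exosomes are higher there by construction. TMM placed Vaultrc5 above 91.5% of tested genes, Rny1 above 36.2% and Rny3 above 15.7%.

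The direction of Rny1 rested on that scaling. With library totals in place of TMM, which put the median log2 difference over tested genes at 2.75 in place of 0.0176, Rny1 was higher in exosomes by 2.21 (SE 0.23, edgeR adjusted p = 6.42e-12), where 75.3% of tested genes were called, 63.8% as higher and 11.5% as lower. With totals left after genes with small nucleolar RNA symbols were removed, Rny1 was higher by 0.74 (edgeR adjusted p = 0.00322), and with at least 10 counts in at least 2 libraries its value was −0.13 (edgeR adjusted p = 0.532). Rny3 had −0.74 with library totals (edgeR adjusted p = 0.0542), −2.21 with totals left after those symbols were removed (edgeR adjusted p = 2.55e-08) and 0.42 with scaling by summed FPKM (edgeR adjusted p = 0.242). Vaultrc5 was higher in exosomes in all 17 alternatives run, by 0.95 to 7.15. Without tumour replicate 1 or tumour replicate 2, where the filter passed only 394 and 397 genes, Vaultrc5 had 0.96 and 0.95, Rny1 had −2.77 and −2.87 and Rny3 had −5.97 and −5.52.

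**Figure D3:**
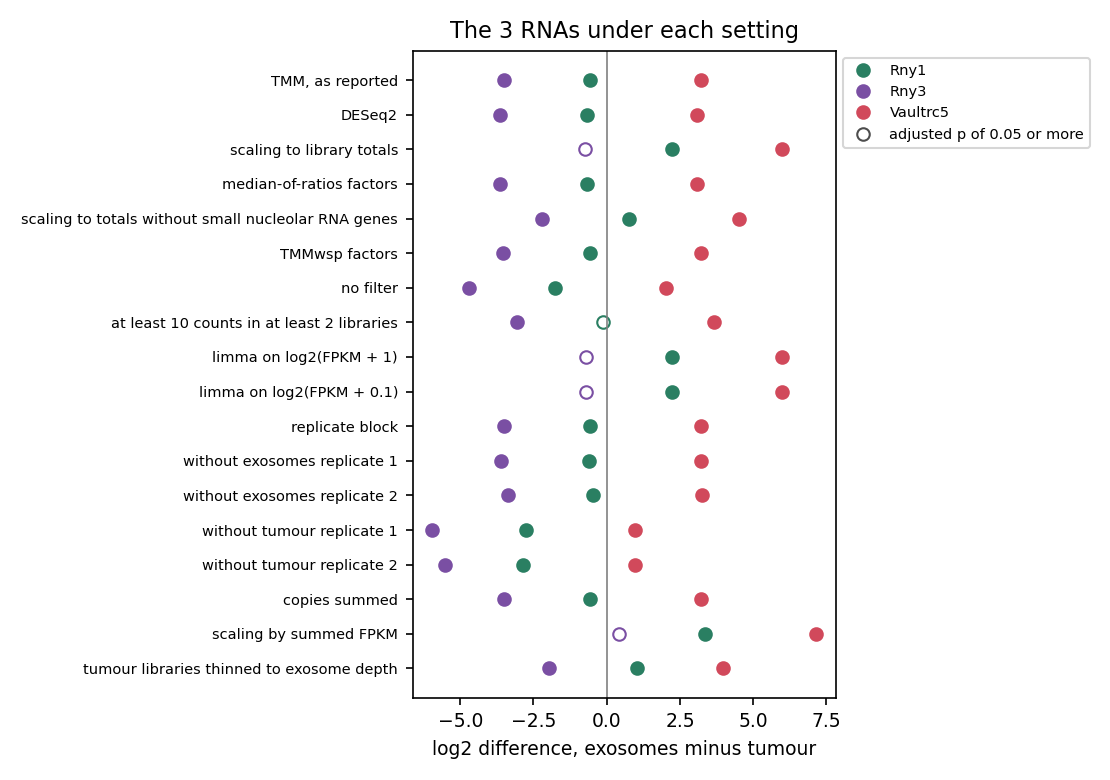
The log2 difference (exosomes minus tumour) of Rny1, Rny3 and Vaultrc5 under each setting; filled points had an adjusted p under 0.05. Vaultrc5 stays above 0 throughout (0.95 to 7.15), Rny1 lies on both sides of 0 (−2.87 to 3.37), and Rny3 is below 0 except at 0.42 with summed FPKM.

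Set among other products of RNA polymerase III, the members ran from −3.52 to 3.20 with TMM scaling, inside a range of −5.82 to 8.34. Of 10 further symbols listed, 7 had a gene ID, and 180 5S genes were listed, of which 72 had a count. With TMM scaling Rpph1, the RNA of RNase P, was 8.34 higher in exosomes, Rmrp, the RNA of RNase MRP, 5.98, and the 7SL genes Rn7s1 and Rn7s2, which encode the RNA of the signal recognition particle, 4.01 and 3.93. Vaultrc5 with 3.20 followed these, close to the median of 2.68 over the 50 5S genes tested. With TMM 40 of these 50 were called higher and 7 lower, where 16.0% and 22.1% of all tested genes were. With library totals 50 were called higher, where 63.8% of all tested genes were. Rn7s6, of the same symbol series as Rn7s1 and Rn7s2, did not go with them. It had −0.27 (edgeR adjusted p = 0.549), beside Rny1 with −0.58, and with library totals both turned positive, to 2.52 and 2.21. Rny3 with −3.52 lay between these and Rn7sk, the RNA that holds the elongation factor P-TEFb inactive, which was lower by 5.82 in exosomes. Genes of 5S and 7SL have near-identical copies that reads may match equally well. Their single values are therefore uncertain, and the calls of 5S genes may not be independent of each other. Rnu6, a U6 gene, was not tested, with 0 and 1 counts in exosomes against 4 and 5 in tumour.

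**Figure D4:**
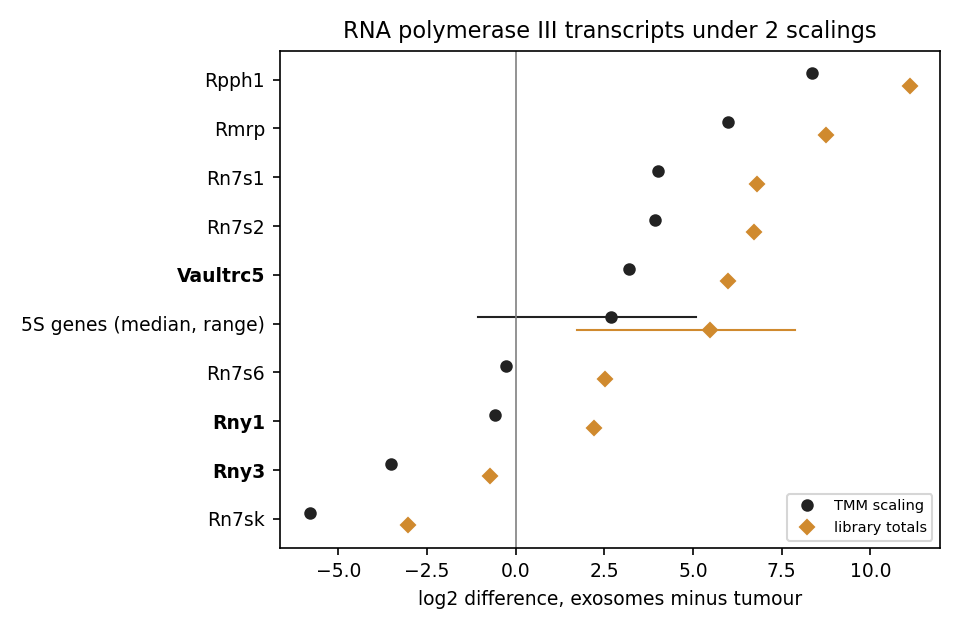
The log2 difference (exosomes minus tumour) of each tested RNA polymerase III transcript with TMM scaling (circles) and with library totals (diamonds); the lines span the 50 tested 5S genes. Vaultrc5 sits at 3.20 with TMM, next to Rn7s1, Rn7s2 and the 5S median. Rny1 sits at −0.58, near Rn7s6 at −0.27, and Rny3 at −3.52. Library totals move all of them to the right, Rny1 past 0 to 2.21.

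The 3 members together made up 0.573% and 0.706% of the counts of this polymerase III list in exosomes, against 9.65% and 10.2% in tumour. The list itself held 41.0% and 37.4% of exosome counts, most of it Rpph1 and 5S, against 0.404% and 0.375% of tumour counts. Within the list Rny1 was 0.320% ± 0.0418 in exosomes and 6.90% ± 0.216 in tumour, and Rny3 was 0.0152% ± 0.00119 in exosomes and 2.56% ± 0.611 in tumour (SD, n = 2 each). Vaultrc5 was 0.304% ± 0.0512 of the list in exosomes and 0.474% ± 0.00689 in tumour. With summed FPKM in place of counts the Vaultrc5 share was 0.436% in both groups (± 0.0407 in exosomes and ± 0.00580 in tumour). Without the 5S genes it was 0.451% ± 0.120 in exosomes and 1.81% ± 0.00269 in tumour. Whether the groups differed in this share, and by how much, thus rested on the measure and on what the list held.

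Y RNA genes have left many copies in mammalian genomes, so loci like each member were searched among annotated transcripts. Rny1 had 2 near-identical copies (at least 90% identity over at least 80% of the longer transcript) and 17 less similar loci, 16 of them misc_RNA genes. Rny3 had 1 less similar locus and Vaultrc5 had 1 near-identical copy on chromosome 8, Gm25403 (91.5% identity), and neither of these had a count. The near-identical Rny1 copy with counts was Gm26168 (chr6:122623547-122623658, plus strand, 92.7% identity), shown here with bases that differ from or are not aligned with Rny1 in capitals.
Gm26168: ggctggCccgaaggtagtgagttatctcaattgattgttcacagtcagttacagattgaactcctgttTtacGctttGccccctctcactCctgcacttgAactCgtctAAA
Gm26168 had 1 and 1 counts in exosomes, against 55 and 17 in tumour. Rny1 itself held 99.7% and 99.6% of the counts of its near-identical family in exosomes, against 98.7% and 99.4% in tumour. With copies summed the Rny1 difference was −0.59 (edgeR adjusted p = 0.0111). How reads with several matches were assigned is not given in the sources used here, so these shares are those of the deposited counts.

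Messenger RNAs of the proteins that work with these RNAs, and of exosome marker proteins, were barely covered. The lists held 10 proteins that bind Y RNAs, 3 of the vault particle, 5 enzymes acting on vault or polymerase III RNA, 28 of RNA polymerase III and its factors and 8 exosome marker proteins. Of these 54 genes 6 passed the filter, among them the exosome markers Pdcd6ip and Sdcbp. With TMM, edgeR called 0 of the 6 at an adjusted p of 0.05, where 38.0% of all tested genes were called. DESeq2 also called 0 of the 6, where it called 508 of all 1442 tested genes. In either tool 0 of the 6 had an unadjusted p under 0.05. With library totals 6 of 6 were called higher, beside the 63.8% of all tested genes. Of the 6, Dusp11, Sdcbp, Pdcd6ip and Ybx1 passed the filter only through exosome counts. Their higher direction with library totals was therefore set in advance, and the 63.8% includes such genes too. No member of the lists reached the level fixed for naming, 10 counts in an exosome library or 100 in a tumour library. Those named here were chosen after their values were seen. Trove2, which encodes Ro60, had 0 and 0 counts in exosomes, against 2 and 3 in tumour. Ssb, which encodes La, had 2 and 0 counts in exosomes, against 19 and 11 in tumour. Mvp, the major vault protein gene, had 3 and 1 counts in exosomes, against 2 and 7 in tumour. None of these 3 passed the filter. Ssb had more counts in total than some tested genes, but a count in only 1 exosome library and tumour levels under 1.79 CPM.

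Markers of cell types were also sparse. Of the carcinoma and epithelial markers, Krt18 had 1 and 1 counts in exosomes, against 11 and 4 in tumour, and Epcam had none in any library. The 3 T cell markers had no count in any library. The 5 erythroid genes summed to 82 and 105 counts in exosomes, against 1661 and 881 in tumour. With TMM scaling 2 of the 4 tested were called lower in exosomes, where 22.1% of all tested genes were. With library totals all 4 were called higher, where 63.8% of all tested genes were. The neutrophil pair S100a8 and S100a9 summed to 15 and 11 counts in exosomes, against 54 and 10 in tumour, and the 3 fibroblast collagens to 23 and 21, against 117 and 69. The 4 macrophage markers summed to 2 and 8 counts in exosomes, against 51 and 33 in tumour, the 3 endothelial markers to 3 and 4, against 14 and 8, and the 2 muscle markers to 2 and 2, against 11 and 1. With TMM scaling no tested marker of these lists was called except the 2 erythroid genes, where 38.0% of all tested genes were called. With library totals 2 macrophage, 2 neutrophil, 2 fibroblast, 1 endothelial and 1 muscle marker were called higher, all that were tested, and Krt18 was not. There too 63.8% of all tested genes were called higher, a direction set in advance for genes that reached the filter level only in exosomes. The part of any cell type in the levels of Y and vault RNA was not tested.

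Over the 4 libraries, genes with at least 10 counts in each were compared with each member by the root mean square distance between their centred log2 CPM values. For Vaultrc5 the nearest of 203 genes were the 5S genes n-R5s194 (distance 0.0985) and n-R5s33 (0.117) and Gm26110 (0.146), an annotated small nuclear RNA gene. For Rny1 they were Fn1, which encodes fibronectin (0.0462), the small nuclear RNA gene Gm24407 (0.108) and Hsp90ab1, which encodes a cytosolic chaperone (0.178). For Rny3 they were Gm26917 (0.256), annotated as a long intergenic noncoding RNA, Snora68 (0.276), a small nucleolar RNA, and Gm25492 (0.474), annotated as a small Cajal body RNA. Rny3 thus had no neighbour as close as those of the other members. The distances rest on 4 libraries in 2 groups and mostly reflect the size of the difference between the groups.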

How the data were processed

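Whole-number gene counts without normalization and FPKM were deposited by the authors for 4 libraries, per the file headers. For the members the deposited FPKM equal the count divided by transcript length and library total. The submitters' processing notes name TopHat2 2.0.9, Cufflinks 2.1.1, Cuffdiff and GRCm38.p4. How genes were counted, including strand and reads with several matches, is not given in the sources used here. Single-library tables equal the series table in 8 of 8 columns. Symbols came from GENCODE M21 (GRCm38), which matched 46574 of 47069 IDs, and sequences from its transcripts.

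The main test was the quasi-likelihood test of edgeR 4.0.16 (R 4.3.3), two-sided, fitted to all genes that passed filterByExpr after TMM scaling. The filter asked for at least 15 counts in total and at least 1.79 CPM in at least 2 libraries. That level is 10 counts at the median library total and less than 1 count in an exosome library. The model held the group and no other term, and p-values were adjusted by Benjamini and Hochberg's method with a threshold of 0.05. The SE is the absolute log2 difference divided by the square root of F. The test was checked on simulated data. Alternatives used DESeq2 1.42.0, limma 3.58.1, other scalings and filters, a replicate block and each library left out. Scaling by summed FPKM and thinning the tumour libraries to 261476 counts were chosen after seeing the data. Single-library intervals are exact Clopper-Pearson. Similar loci were found with blastn 2.17.0 (e-value up to 1e-05, word size 7) and folds with RNAfold 2.7.2.

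Replicates were not duplicates: chi-square per degree of freedom was 28.4 in exosomes and 33.3 in tumour. Named genes were the 3 members, the polymerase III list, near-identical copies with a count, the 3 genes nearest each member, and up to 3 partners per list with at least 10 exosome or 100 tumour counts. Members and lists were chosen with earlier results of these data known.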

Additional observations from a re-analysis of the deposited data

How the results depend on the processing

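Vaultrc5 stayed higher in exosomes and called under all 17 alternatives. Rny1 kept its direction in 11 of 17 and Rny3 in 16 of 17. Rny1 turned to 2.21 with library totals, 0.74 with totals without small nucleolar RNA genes, 2.22 with limma on log2(FPKM + 1) or log2(FPKM + 0.1), 3.37 with summed FPKM and 1.02 with thinned tumour libraries, and it lost its call at −0.13 with at least 10 counts in at least 2 libraries. Rny3 lost its call with library totals (−0.74) and with limma on log2(FPKM + 1) and log2(FPKM + 0.1) (−0.72 each), and turned to 0.42 with summed FPKM. Leaving out each library gave −2.87 to −0.48 for Rny1, −5.97 to −3.38 for Rny3 and 0.95 to 3.27 for Vaultrc5. The median log2 difference over tested genes moved too, from 0.0176 with TMM to 2.75 with library totals and 3.91 with summed FPKM. It was −0.51 with at least 10 counts in at least 2 libraries, and −1.32 and −1.50 without tumour replicate 1 or 2. Several of these settings use other totals or test other genes. Why the values of the members moved was not tested. Low counts of Rny3 in exosomes limit its precision.

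The 548 genes called (230 higher, 318 lower) became 1086 with library totals (920 and 166), 753 without small nucleolar RNA genes in the totals (505 and 248), 825 with no filter (215 and 610), 1001 and 1138 with limma at pseudocounts of 1 and 0.1, 1223 with summed FPKM (1099 and 124), 289 with thinned tumour libraries (168 and 121) and 279 to 509 with a library left out. Of the partner genes, exosome markers among them, 0 of 6 were called with TMM, where 38.0% of all tested genes were called. The calls became 6 of 6, all higher, with library totals, both limma settings and summed FPKM. There 63.8%, 57.6%, 67.8% and 76.2% of all tested genes were called higher. For partners and other genes that reached the filter level only in exosomes, this direction was set in advance. Partner genes called became 1 of 6 without small nucleolar RNA genes in the totals (35.0% of all tested genes higher). With no filter 3 of the 50 partner genes then tested were lower (4.23% of 14421 genes lower). Tumour shares without small nucleolar RNA genes in the denominator were 0.0751% for Rny1, 0.0277% for Rny3 and 0.00516% for Vaultrc5, and with a library left out shares moved only to that of the other. The members' share of the polymerase III list became 1.06% in exosomes and 11.8% in tumour with summed FPKM, and 0.947% and 37.8% without 5S genes. The ratio differences kept their direction with each library left out, with copies summed and with FPKM, which leaves a ratio's difference as it is by construction.

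Among other named genes, library totals, totals without small nucleolar RNA genes, limma at pseudocounts of 1 and 0.1, summed FPKM and thinned tumour libraries turned Rn7s6 (2.52, 1.05, 2.54, 2.56, 3.68 and 1.35), Fn1 (2.22, 0.75, 1.51, 2.12, 3.38 and 0.32), Gm24407 (2.15, 0.68, 2.14, 2.15, 3.30 and 0.73) and Hsp90ab1 (2.33, 0.87, 1.94, 2.26, 3.50 and 1.41). At least 10 counts in at least 2 libraries turned Rn7s6 to 0.17 and Hsp90ab1 to 0.0045. Summed FPKM turned Gm26917 to 0.76, Snora68 to 0.72 and Gm25492 to 0.056.

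Libraries of the same number in both groups share only that number in the labels, and their deviations from the group means had a correlation of −0.020 over 1442 genes. With the replicate number as a block, Rny1 had −0.58, Rny3 −3.50 and Vaultrc5 3.20, 589 genes were called (244 higher, 345 lower), and no call of a member was lost.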

Other observations

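Among the less similar Y1 loci was Gm24045 (chromosome 4, 114987964 to 114988061, GRCm38, plus strand), a misc_RNA gene with no overlapping annotated gene. Its identity to Rny1 was 77.1% over 93.8% of Rny1. It had 4 and 8 counts in exosomes, against 0 and 0 in the tumour libraries, which held far more counts. It was chosen after its values were seen. With library totals its exosome level was 103 times a floor of 3 counts per tumour library, a value that leaves out the counting error in exosomes. That scaling put the median log2 difference over tested genes at 2.75. The total count of Gm24045 was under the filter, so it was not tested. The other less similar Y1 loci with a count were Gm24203, with 0 and 1 counts in exosomes against 0 and 0 in tumour, and Fpgt, a protein-coding gene whose match lies on the opposite strand, with 0 and 0 counts in exosomes against 2 and 1 in tumour.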
